A study of Danio rerio with 6 samples.

Results

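Genes used as markers of microvillous and crypt olfactory neurons were followed in RNA of cells sorted from the heads of zebrafish larvae. The 7 members were the rows of the deposited count files whose symbol was trpc2a, trpc2b, s100z, tfap2e, pitpnab, calb2a or calb2b, out of 32469 gene rows in all. Case was ignored, and a capital symbol could lack the final a or b. Each name found its row: trpc2a, trpc2b and calb2b stood under their zebrafish names, and the others as S100Z, TFAP2E, PITPNA and CALB2. A row named pitpnaa exists beside PITPNA, and a row named calb2b beside CALB2, so PITPNA and CALB2 took the places of pitpnab and calb2a by elimination, with no closer identification in the symbol table. The RefSeq table of assembly GRCz12tu lists trpc2a among the other names of trpc2b, so the letters of this pair have been used for either gene.

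The fish nose holds several kinds of olfactory sensory neuron side by side in 1 epithelium. Ciliated neurons use odorant receptors and a cyclic nucleotide cascade, and in zebrafish they are the neurons marked by OMP. Microvillous neurons use OlfC receptors and a phosphoinositide cascade that opens the TRPC2 cation channel. Crypt neurons are a rare kind, known for the receptor ORA4 and for S100 calcium-binding protein, and calretinin and S100 proteins serve as stains for subsets of fish olfactory neurons.

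All fish carried OMP-Gal4 and UAS-GCaMP1.6, so that the promoter of OMP drives a green calcium sensor through Gal4. They were kept in 100 µM gallein, an inhibitor of signalling by G protein beta-gamma dimers, or in the solvent DMSO (control), starting between 16 and 20 hours post fertilization, and the drug or solvent was renewed every 24 hours. Heads were taken at 5 days post fertilization, broken up into single cells with trypsin plus collagenase, and the green cells were sorted. Each group held 3 samples, called biological replicates in the labels, which do not say whether these came from separate clutches or how many fish were pooled in each. P-values therefore measure the spread between these samples, which may be in part technical.

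Gene counts per library ranged from 30822664 to 40295728. The row named OMP, taken as the sort gene, was found at low levels, 13.4, 6.96 and 7.80 CPM in control replicates 1 to 3, against 4.79, 0.192 and 4.99 CPM in gallein replicates 1 to 3, where CPM is counts per 1000000 gene counts after TMM scaling. Another identifier with the symbol OMP has no row in the count files. The symbol table does not say which of them is ompa or ompb, so the levels of OMP and the ratios to it cover this row only. Gallein replicate 2 stood apart, with 4 OMP counts and no count of cngb1b, a subunit of the olfactory cyclic nucleotide-gated channel. Not every marker of ciliated neurons was low there. Of the rows named ADCY3, ENSDARG00000017437 had no count in this library. The other, ENSDARG00000077145, was at 13.57 CPM, inside the control range of 11.14 to 19.23 CPM. Transcripts of other tissues were present in every library: summed over the markers found, lens genes (10 of 10 tested) lay between 819 and 2338 CPM in controls and between 1554 and 4034 in gallein, skin genes (7) between 1115 and 4085 and between 1540 and 5535 CPM, and photoreceptor genes (9) between 1784 and 6951 and between 365 and 21490 CPM. Of the 21490 CPM, 20450 came from the single gene opn1sw2 in gallein replicate 1. In such mixed RNA, fewer cells of a type and less RNA per cell cannot be told apart.

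Gallein and control samples overlapped for each of the 7 marker genes. Of all 18271 genes tested, the groups were apart in 9.04%, with gallein below the controls in 5.22% and above them in 3.81%. By edgeR's quasi-likelihood test with Benjamini-Hochberg adjustment over all genes tested, 0 of the 7 rose and 0 fell (adjusted p from 0.779 to 0.996), where 0.0% of all genes rose and 0.0% fell. An unadjusted p under 0.05 was reached by 0 of the 7 and by 1187 of all genes, and the DESeq2 Wald test called 93 genes, 0 of them among the 5 members to which it gave an adjusted p (S100Z and TFAP2E received none). The log2 fold change, gallein minus control, was negative in 4 and positive in 3, with a median of -0.06 against 0.07 for all genes tested. With spike-in RNA as the scale, all 7 were negative (median -1.31), as was the median of all genes (-1.67), with library size only 5 were negative, and in limma-voom 6 were. Within the gallein group the coefficient of variation of the 7 genes ran from 70.5% to 162%, where the median of all genes tested was 78.9%, and from 16.3% to 123% within the controls (median of all genes 54.1%).

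**Figure D1:**
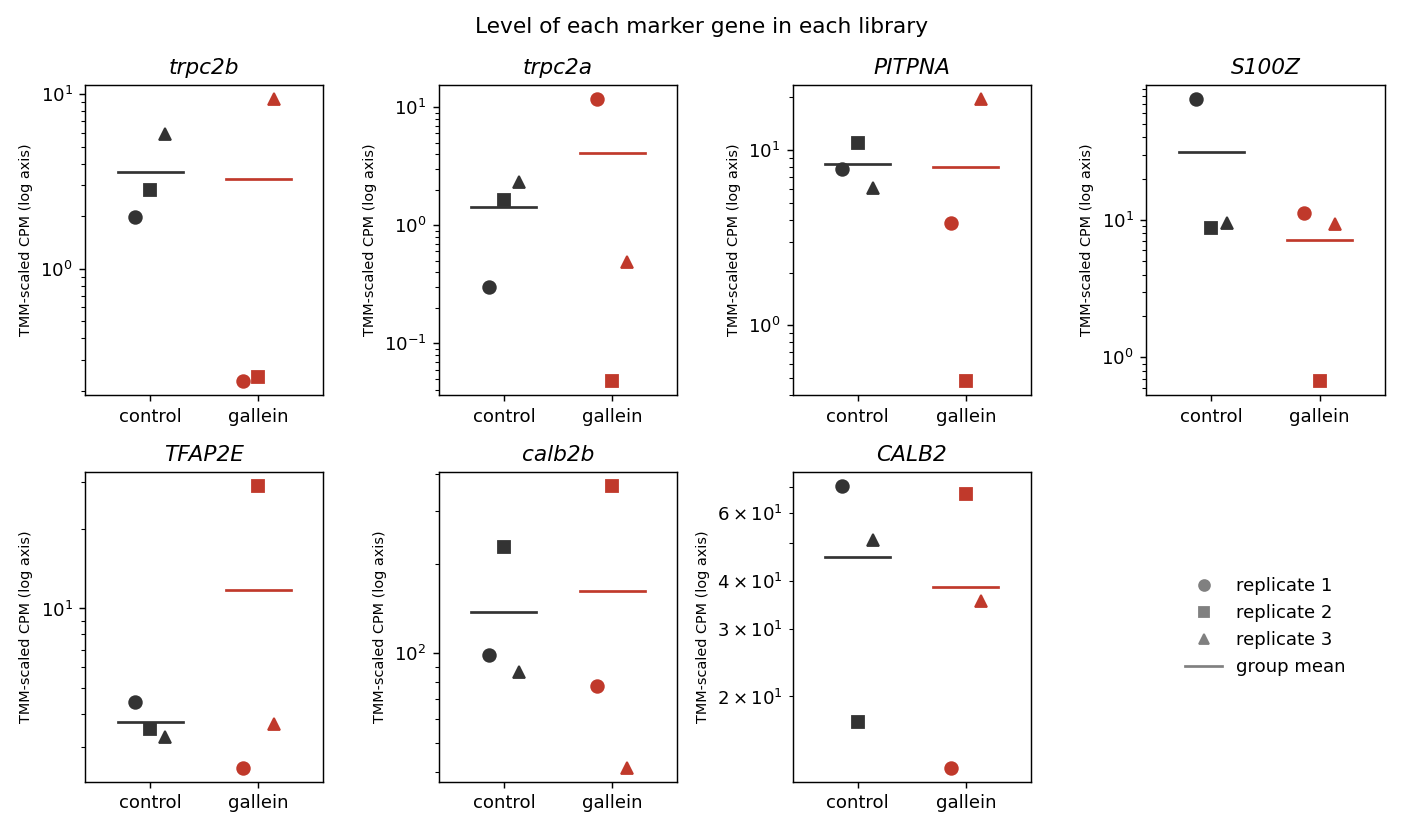
Level of each marker gene in TMM-scaled CPM (log axis, own scale per panel) in the 3 control and the 3 gallein libraries; marker shapes give the replicate number and lines the group means. The groups overlap in all 7 panels, and trpc2b, trpc2a, PITPNA, TFAP2E and calb2b each have gallein points both below and above the 3 controls.

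The gene trpc2b (ENSDARG00000003344) encodes a TRPC2 channel, the cation channel of microvillous neurons. It stood at 1.99, 2.82 and 5.89 CPM in control replicates 1 to 3, against 0.228, 0.241 and 9.38 CPM in the gallein libraries in the same order. Gallein replicates 1 and 2 were thus below every control, with 6 and 5 counts against 79, 165 and 256, while gallein replicate 3, with 346 counts, was the highest of the 6 libraries. The group means were close, 3.57 ± 2.06 CPM for the controls against 3.28 ± 5.28 CPM for gallein (SD, n = 3 per group). The log2 fold change was -0.11 ± 1.34 (SE, edgeR adjusted p = 0.996), with a 95% interval from -3.08 to 2.85, which is too wide to call the levels alike. Leaving out gallein replicate 3 gave -3.92 (adjusted p = 0.416), leaving out gallein replicate 1 or 2 gave 0.43, and leaving out control replicate 3 gave 0.46. In limma-voom the value was -1.67.

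The channel gene trpc2a (ENSDARG00000039065) had another order. It was at 0.302, 1.64 and 2.35 CPM in the controls, against 11.7, 0.0481 and 0.488 CPM under gallein. The library highest for trpc2a, gallein replicate 1, with 309 counts, was among the lowest for trpc2b, and a single trpc2a count came from gallein replicate 2. The log2 fold change was 1.51 ± 1.55 (SE, edgeR adjusted p = 0.889, 95% interval -1.91 to 4.94), which turned to -2.37 once gallein replicate 1 was left out and to -0.48 in limma-voom. Against each other, 6.58, 1.72 and 2.51 trpc2b counts were found per trpc2a count in the controls, against 0.0194, 5.00 and 19.2 under gallein. Both deposited files of a sample held the high values: 166 and 143 trpc2a counts in gallein replicate 1, and 173 trpc2b counts in either file of gallein replicate 3.

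PITPNA (ENSDARG00000044091) encodes a phosphatidylinositol transfer protein, which moves the precursor of phosphoinositides between membranes. Its levels were 7.80, 11.04 and 6.05 CPM in the controls, against 3.84, 0.481 and 19.6 CPM under gallein. As for trpc2b, gallein replicates 1 and 2 lay below every control and gallein replicate 3 above. The log2 fold change was -0.06 ± 1.07 (SE, edgeR adjusted p = 0.996, 95% interval -2.43 to 2.32). Leaving out gallein replicate 3 moved it to -1.94, and its direction turned when gallein replicate 1 (0.28), gallein replicate 2 (0.50) or control replicate 2 (0.20) was left out. In limma-voom it stood at -1.03. Its relative pitpnaa was at 365 CPM in gallein replicate 2, the library with the least PITPNA, against 8.53, 13.0 and 7.41 CPM in the controls. Per pitpnaa count there were 0.914, 0.851 and 0.817 PITPNA counts in the controls, a narrow range, against 0.122, 0.00132 and 4.69 under gallein.

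S100Z (ENSDARG00000038729), an S100 calcium-binding protein gene tied to crypt neurons in zebrafish, was the member with the lowest log2 fold change, -2.14 ± 1.15 (SE, edgeR adjusted p = 0.779, 95% interval -4.70 to 0.41). Its levels were 76.2, 8.69 and 9.46 CPM in the controls, against 11.2, 0.674 and 9.43 CPM under gallein. Control replicate 1, with 3028 counts, stood apart from the other controls (508 and 411 counts), and gallein replicate 2, with 14 counts, from the other gallein libraries (295 and 348). The remaining 4 libraries lay between 8.69 and 11.2 CPM. Without control replicate 1 the log2 fold change was -0.34 (adjusted p = 0.998), and without gallein replicate 2 it was -1.61.

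TFAP2E (ENSDARG00000008861) encodes transcription factor AP-2 epsilon, which in mouse takes part in the identity of a class of vomeronasal sensory neurons. It was at 4.43, 3.52 and 3.27 CPM in the controls, against 2.51, 29.1 and 3.66 CPM under gallein. Among the 7 it varied least between the controls, with the 16.3% given above. Gallein replicate 2 was far above the other 5 libraries, with 604 counts against 66 to 206. The log2 fold change was 1.65 ± 0.99 (SE, edgeR adjusted p = 0.790, 95% interval -0.54 to 3.84) with this library and -0.28 without it.

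The calretinin genes, which encode calcium-buffering proteins of many neurons of nose, retina and brain, were the members with the most counts. The calb2b row (ENSDARG00000036344) was at 99.0, 227 and 86.3 CPM in the controls, against 77.9, 365 and 41.3 CPM under gallein. The CALB2 row (ENSDARG00000041062) was at 70.5, 17.2 and 50.9 CPM in the controls, against 13.1, 67.2 and 35.4 CPM under gallein. Control replicate 2 was thus the highest control for calb2b and the lowest for CALB2, with 13.2 calb2b counts per CALB2 count where the other controls had 1.40 and 1.70, and gallein had 5.96, 5.43 and 1.17. The log2 fold changes were 0.23 ± 0.97 for calb2b (edgeR adjusted p = 0.985, 95% interval -1.93 to 2.39) and -0.26 ± 0.83 for CALB2 (adjusted p = 0.974, 95% interval -2.10 to 1.58), each with its SE. Without gallein replicate 2 they were -1.20 and -0.93, CALB2 was at 0.19 without control replicate 1 and 0.15 without gallein replicate 1, and calb2b was at -0.01 without control replicate 3. Markers of inner retina and amacrine cells (10 of 11 matched genes in the files, 10 tested) summed to 159, 312 and 578 CPM in the controls, against 184, 360 and 256 CPM under gallein. Brain neuron markers (9 of 10) summed to between 496 and 689 CPM in controls and between 429 and 1292 CPM in gallein, and those of hair cells (10 of 12) to between 147 and 969 and between 97.0 and 169 CPM. Of the 969 CPM of hair cell markers, 922 came from a single MYO6 row in control replicate 3. No marker of these 3 lists was without counts over all libraries, and their part in the calretinin levels was not tested.

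**Figure D2:**
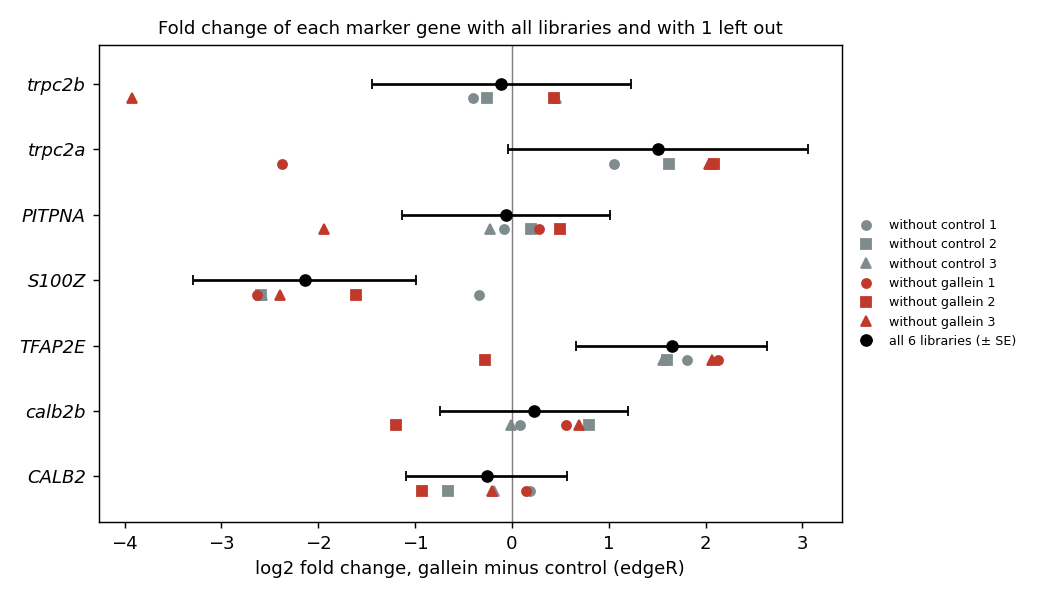
Log2 fold change of each marker gene, gallein minus control, from edgeR with all 6 libraries (black, bars are SE) and with 1 library left out (grey for controls, red for gallein, shapes give the replicate number). A single omitted library moves trpc2b to -3.92, trpc2a to -2.37, S100Z to -0.34 and TFAP2E to -0.28.

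Across the 7 genes, high and low libraries did not line up. Gallein replicate 2 held the lowest of the 6 levels for 3 genes (trpc2a, PITPNA and S100Z) and the highest for another 2 (TFAP2E and calb2b). Gallein replicate 1 was lowest for 3 (trpc2b, TFAP2E and CALB2) and highest for trpc2a. Gallein replicate 3 was highest for trpc2b and PITPNA and lowest for calb2b. Gallein replicate 1 was below every control for 5 of the 7 genes (29.4% of all genes tested), gallein replicate 2 for 4 (38.5%) and gallein replicate 3 for 1 (27.3%). The lowest of the 6 levels was that of a control for 0 of the 7 and for 35.1% of all genes tested. The biological coefficient of variation estimated by edgeR was between 0.753 (CALB2) and 1.19 (trpc2a), with a median of 0.900 against 0.846 over all genes tested, and lay above that of all genes in 4 of the 7.

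**Figure D3:**
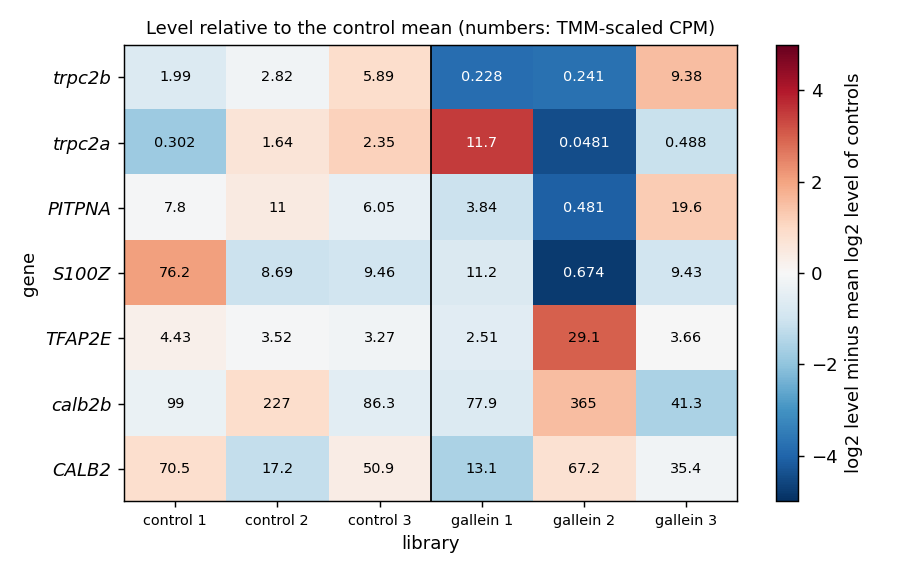
Levels of the 7 marker genes (lines) in the 6 libraries (columns), coloured by the log2 level minus the mean log2 level of the controls; the numbers are TMM-scaled CPM. The dark cells of gallein replicate 2 are of either sign, such as trpc2a (0.0481 CPM) below its controls and TFAP2E (29.1 CPM) above its controls.

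Counts were also set against OMP in the same library, a ratio that does not depend on scaling. For each OMP count the controls held 0.149, 0.405 and 0.755 trpc2b counts, against 0.0476, 1.25 and 1.88 under gallein. For S100Z the ratios were 5.70, 1.25 and 1.21 in the controls, against 2.34, 3.50 and 1.89 under gallein. The low S100Z level of gallein replicate 2 thus went with a ratio inside the control range, from 14 S100Z and 4 OMP counts. TFAP2E was the only member whose groups were apart by this ratio, with 0.331, 0.506 and 0.419 per OMP count in the controls, against 0.524, 151 and 0.734 under gallein. By the same ratio the groups were apart in 26.7% of all genes tested, with gallein above in 26.3% and below in 0.482%, so 1 member of 7 is no more than the background. Per count of gnal, the G protein alpha gene of ciliated neurons, the TFAP2E groups overlapped, at 0.530, 0.469 and 0.149 in the controls, against 0.339, 11.84 and 0.467 under gallein.

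The mean log2 ratio of TFAP2E differed by 3.17 (two-sided exact permutation p = 0.1 with 3 samples a group, 0.7 adjusted over the 7 genes), higher in 3 of 3 gallein samples. With 3 samples against 3, a p of 0.1 is the smallest this test allows. Without gallein replicate 2 the difference was 0.59 (exact permutation p = 0.2), and per gnal count it was 1.88 (exact permutation p = 0.6). The other differences were 0.45 for trpc2b, 1.87 for trpc2a, 1.12 for PITPNA, 0.24 for S100Z, 2.13 for calb2b and 2.05 for CALB2, with exact permutation p from 0.2 to 0.8. Without gallein replicate 2 that of CALB2 was 0.00 and that of calb2b -0.26, without gallein replicate 1 that of trpc2a was 0.62, and without gallein replicate 3 that of PITPNA was 0.61. All 7 ratios share the OMP counts as denominator. OMP itself was lower in every gallein sample than in any control, as were 5.22% of all genes tested. With 4 counts in gallein replicate 2, OMP passed the low-count filter only with its control counts, so it cannot be weighed against that share. Its log2 fold change was -1.49 ± 1.04 (SE, edgeR adjusted p = 0.822).

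**Figure D4:**
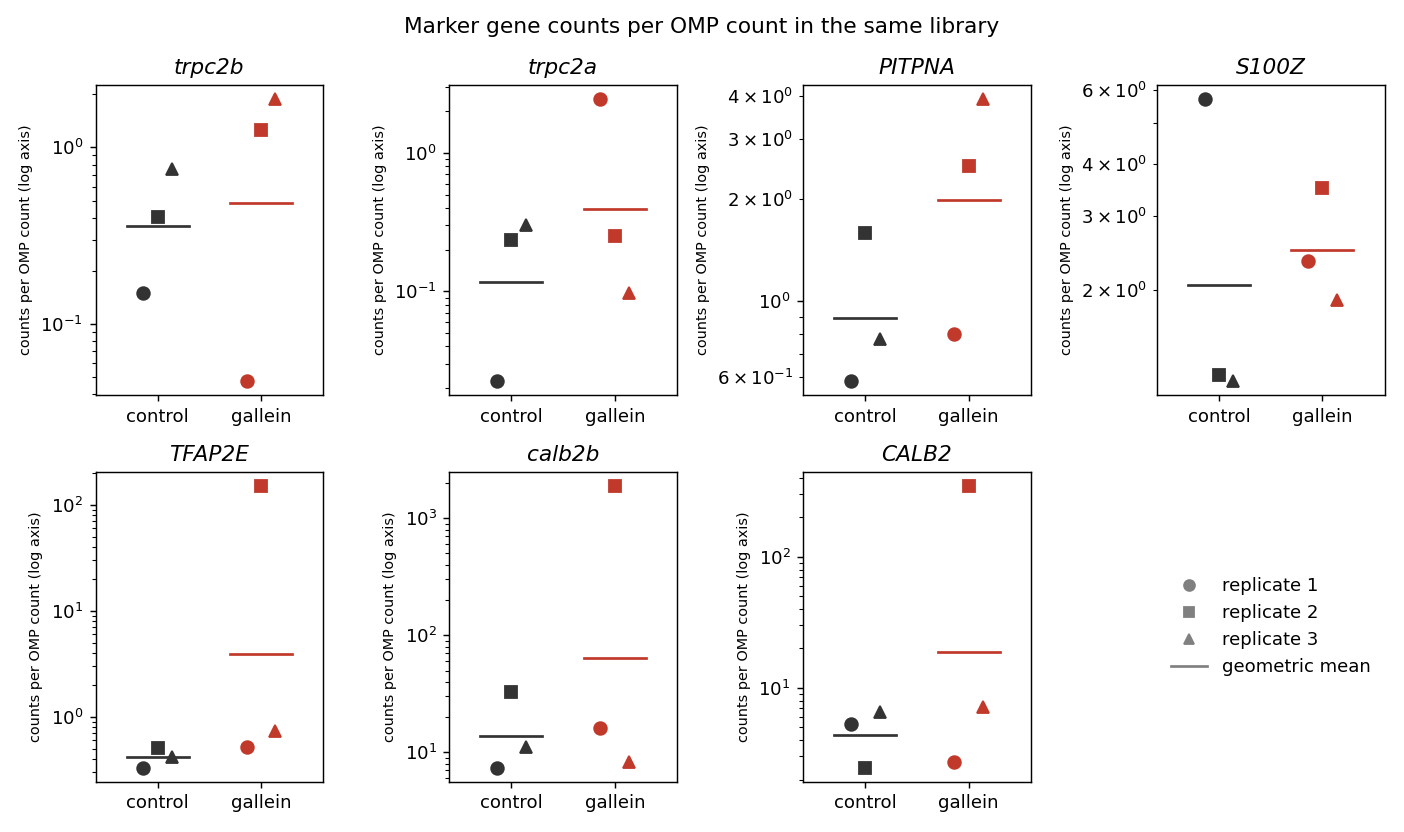
Counts of each marker gene per OMP count in the same library (log axis, own scale per panel) for 3 control and 3 gallein libraries; shapes give the replicate number and lines the geometric mean of the group. For TFAP2E, calb2b and CALB2 the point of gallein replicate 2, at 151, 1895 and 349, rests on 4 OMP counts.

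Receptor genes of microvillous neurons did not follow trpc2b from library to library. Of 52 matched OlfC receptor genes 33 have a row in the count files, so their sums cover part of the repertoire. The 33 held 1063, 739 and 1067 counts in the controls, against 62, 360 and 239 under gallein. In CPM these were 26.7, 12.6 and 24.6 against 2.36, 17.3 and 6.48. Gallein replicate 3, the library with the most trpc2b, had 0.691 OlfC counts per trpc2b count, and gallein replicates 1 and 2 had 10.3 and 72.0, against 13.5, 4.48 and 4.17 in the controls. In gallein replicate 2 a single gene, olfcq11, gave 212 of the 360 OlfC counts. Of the 8 OlfC genes tested, 0 passed the threshold and 6 had a negative log2 fold change. Their median was -2.71 (-4.02 and all 8 negative with spike-in scaling). In 4 of the 8 (olfcq12, olfcv3, olfcv1 and olfcr1) all gallein samples lay below all controls. These 4 passed the low-count filter through their control counts, so their number cannot be weighed against the 5.22% of all genes tested. The 3 with the smallest p were olfcq12 (-3.46), olfcv3 (-3.82) and olfcq1 (-3.96). The gene olfcq12, for one, had 44, 109 and 62 counts in the controls against 1, 4 and 6 under gallein. The signs, the median and the non-overlap of the tested genes thus depend in part on the filter. Untested OlfC genes went either way. Lower under gallein were, among others, olfce1 (87 counts in all controls, 6 under gallein), olfcq13 (86 and 6), olfck2 (64 and 1) and olfcq9 (53 and 3). Higher were, among others, olfcq11 (44 and 218) and olfcq14 (16 and 39), with 212 and 37 of these counts in gallein replicate 2. Markers of mature ciliated neurons shared the negative direction of most tested OlfC genes. All 7 tested were negative (median -1.32, 0 passed). In 3 (OMP, cngb1b and the ADCY3 row ENSDARG00000017437) all gallein samples lay below all controls. Gallein replicate 2 had 4, 0 and 0 counts of these. They thus passed the low-count filter only with their control counts, and their number cannot be weighed against the 5.22% either. Summed over the 7 ciliated markers, the level was 60.3, 61.65 and 60.92 CPM in the controls, against 27.89, 16.31 and 37.52 CPM under gallein. In gallein replicate 2, 13.57 CPM of this sum came from another ADCY3 row (ENSDARG00000077145). Gallein replicate 2 was the lowest gallein library for the ciliated sum and the highest for the sum of the 33 OlfC genes. Of its 17.3 OlfC CPM, 10.2 came from the untested olfcq11, so this difference in order rests in large part on 1 gene. Tested markers of erythroid cells (5 of 5 positive, median 2.14) and myeloid cells (4 of 4, median 1.83) lay on the other side, with 0 passed. Erythroid markers summed to 6.815 to 33.41 CPM in the controls against 4.609 to 165.9 CPM under gallein. Myeloid markers summed to 4.428 to 7.622 against 10.1 to 39.75 CPM, with 24.89 CPM from a single MPEG1 row in gallein replicate 1. Of 8 myeloid rows in the files only 4 were tested, among them MPEG1 more than once. Untested, ptprc and SPI1 had fewer counts under gallein (8 and 5, against 46 and 19 in the controls). The untested lyz and another MPEG1 row had more (50 and 40 against 30 and 4). The part of these cell types in the OlfC levels was not tested.

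The crypt neuron receptor gene ora4 had 47, 11 and 31 counts in the controls, against 1, 0 and 0 under gallein, too few for the test's filter on low counts. Gallein replicate 3 thus held 348 S100Z counts with no count of ora4.

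Genes of the phosphoinositide cascade, G protein alpha subunits of the o and i class, phospholipases C beta and inositol trisphosphate receptors, numbered 13 in the test. Of these 0 passed, 8 were negative and 5 positive, with a median of -0.33, and 12 were negative with library size only or spike-in scaling. The G protein gene gnaia was at 27.3, 30.5 and 28.3 CPM in the controls, against 302, 32.8 and 49.4 CPM under gallein, above all controls in all 3 samples (log2 fold change 2.16 ± 0.96 SE, edgeR adjusted p = 0.761). It was 1 of the 13 in this position, which 3.81% of all genes tested held. An ITPR1 gene (ENSDARG00000014655), for an inositol trisphosphate receptor, was at 87.0 CPM in control replicate 1, the library highest for S100Z, and between 1.25 and 9.50 CPM in the other 5 libraries. The phospholipase gene PLCB3 was at 16.4, 16.5 and 21.2 CPM in the controls, against 19.5, 3.95 and 8.30 CPM under gallein.

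Relatives of the members gave no call either. Among other TRPC channel genes 6 were tested, 3 negative and 3 positive, with a median of 0.00, and all 6 were negative with library size only or spike-in scaling. The lowest, trpc5b (-3.00), rested on control replicate 3, at 12.6 CPM against 0.304 to 1.64 CPM in the other libraries. Of other S100 and calbindin-type genes 11 were tested, 5 negative and 6 positive, with a median of 0.16, and 8 were negative with library size only and 11 with spike-in scaling. Here icn2, an ictacalcin of the S100 family, was highest in control replicate 1 at 29.7 CPM, as S100Z was, and s100s in gallein replicate 2 at 158 CPM. All 4 other AP-2 factor genes were positive, with a median of 0.90, and 0 passed, while 2 were negative with library size only and all 4 with spike-in scaling (median -1.04). TFAP2A, a factor of skin and neural crest, was at 88.0, 53.1 and 44.5 CPM in the controls, against 84.2, 211 and 227 CPM under gallein. The other 5 phosphatidylinositol transfer protein genes had a median of 0.15 (-0.58 with library size only, -1.90 with spike-in scaling), and 0 passed. Of these, PITPNM3 was higher in each gallein sample than in any control (9.01, 13.5 and 29.7 against 5.74 to 6.14 CPM), as were 3.81% of all genes tested.

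The genes closest in pattern were sought by Pearson's r of log2(CPM + 1) over the 6 samples, as a description. Among the 3 closest named genes were gsk3bb (r = 0.994) and nfat5a (0.992) for trpc2b. The 3 closest were ENGASE, frya and si:dkey-17m8.1 for trpc2a (0.993 to 0.999). They were NOL8, TMEM120B and PIK3R3 for PITPNA (0.990 to 0.998), and rragd, TMEM184C and IFT81 for S100Z (0.993 to 0.997). For TFAP2E they were MIPEP, OSR2 and ZNF710, each at 0.997 and each high in gallein replicate 2, where MIPEP stood at 163 CPM against 1.82 to 3.87 CPM in the other libraries. NEUROD1, SCAF4 and SIRT3 were closest to calb2b (0.975 to 0.987), and ANKRD46, TADA3 and gnb1a to CALB2 (0.984 to 0.990). Between 14 (CALB2) and 259 (TFAP2E) named genes reached an r of 0.95, so each pattern over 6 libraries was shared by many genes.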

How the data were processed

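For each sample the authors deposited 2 files of read counts, whole numbers per gene. TopHat2 2.0.4, HTSeq and the build Zv9 were used, per the submitters' processing notes. For annotation release, counting mode and strand the setting is not given in the sources used here. Reads shared by overlapping genes, antisense genes or close copies can therefore not be told apart. The 2 files of a sample differed by little more than sampling noise (chi-square per gene from 1.34 to 1.67, against 399.6 to 1488 between replicates) and were summed as 1 replicate. Rows that name no gene (19.4% to 33.9% of each total) and 92 rows of spike-in RNA entered neither library sizes nor tests.

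A symbol table named 20734 of the 32469 gene identifiers. The test on the counts was that of edgeR 4.0.16 under R 4.3.3 (TMM factors, filterByExpr with a minimum count of 10, robust quasi-likelihood fit, group as the only term, Benjamini-Hochberg over 18271 genes, threshold 0.05, two-sided). The SE is the size of the log2 fold change divided by the square root of F. Ratios to OMP used log2 with 0.5 added to either count and an exact permutation test. Lists are described by counts and medians only. Low counts carry counting error, and reads are not independent molecules. Alternatives were other scalings, filters, DESeq2 1.42.0, limma 3.58.1 (voom), a replicate block, either file alone and each library left out. The edgeR step was tested on simulated counts and the permutation test on a small constructed example. By rule, the named genes were all members, up to 3 genes of a list with the smallest p, and the 3 genes closest in pattern. OlfC genes outside this rule, the ADCY3 rows, ora4 and the untested myeloid genes were chosen after their values were seen. Some genes that this rule names are not reported here. Members and lists were chosen with earlier results of these data known.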

Additional observations from a re-analysis of the deposited data

How the results depend on the processing

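Of 117 member fold changes computed under alternatives, 115 had an adjusted p and 0 of these passed the threshold (lowest 0.283), while the DESeq2 Wald test gave none for S100Z and TFAP2E. The direction was kept in 97 of the 117. The count of all genes past the threshold was 0 under every alternative other than the DESeq2 Wald test, with 93. Scaling by spike-in totals moved the median of all genes to -1.67 (library size only -0.49), trpc2a to -0.80, TFAP2E to -0.59 and calb2b to -2.35. Relative to that median they were at 0.87, 1.08 and -0.68. With library size only, calb2b was at -0.68. In limma-voom, trpc2a was at -0.48, calb2b at -0.22, trpc2b at -1.67 and PITPNA at -1.03. Of these, trpc2b and PITPNA kept their negative direction in limma-voom. The cause of these shifts and reversals was not tested. With 1 library left out, the log2 fold changes ran from -3.92 to 0.46 for trpc2b, -2.37 to 2.09 for trpc2a, -1.94 to 0.50 for PITPNA, -2.63 to -0.34 for S100Z, -0.28 to 2.13 for TFAP2E, -1.20 to 0.80 for calb2b and -0.93 to 0.19 for CALB2. The differences per OMP count then ran from -0.51 to 2.08 for trpc2b, -0.14 to 0.98 for S100Z, -0.26 to 3.58 for calb2b, 0.00 to 3.42 for CALB2, 0.62 to 2.92 for trpc2a, 0.61 to 1.76 for PITPNA and 0.59 to 4.59 for TFAP2E. With gnal in place of OMP they were -0.84 for trpc2b, -0.17 for PITPNA, -1.05 for S100Z, 1.88 for TFAP2E, 0.58 for trpc2a, 0.84 for calb2b and 0.76 for CALB2. With the replicate block, trpc2a was at -1.46, calb2b at -0.24, trpc2b at -2.06 and PITPNA at -1.15, and 0 genes passed. Under that fit, as in limma-voom, 6 of 7 members were negative. Same-numbered samples deviated from their group means with correlations of 0.0704, -0.102 and 0.167, and not every sample correlated best with its own number, so the numbers were not taken as pairs. With at least 10 counts in every sample, trpc2b and trpc2a were not tested. Levels of trpc2b and trpc2a in gallein replicate 2 rest on 5 counts and 1 count.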
